A study of Mus musculus with 3 samples.

Results

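Heat shock genes encode molecular chaperones, and 8 of them were followed here across the cells of the mouse limbus and iridocorneal angle: Hspa1a, Hspa1b, Dnajb1, Hsp90aa1, Hspb1, Hsph1, Hspa8 and Cryab. The genes were taken from a list of symbols, and all 8 were found among the 31053 genes of the count matrices. Single cells were measured in 3 droplet libraries, each made from the pooled tissue of 2 to 3 mice aged 6 weeks, with both sexes pooled as the methods describe it. Both control libraries (control replicates 1 and 2) came from Angpt1 flox/flox mice, and the single Angpt1ΔNC library came from Angpt1 flox/flox;Wnt1Cre+ mice, in which Wnt1-Cre removes the vascular growth factor Angpt1 from cells of the neural crest lineage. The strain of all libraries was given as Mixed, and the mice had been crossed onto the albino ICR stock, so controls and mutants alike lack melanin. The tissue was digested with collagenase and then trypsin at body temperature before the cells were captured.

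The 3 libraries held 9076, 10160 and 6772 kept cells with medians of 6329.5, 6393.5 and 7444 unique molecular identifiers (UMIs, counted transcripts) per cell in control replicate 1, control replicate 2 and Angpt1ΔNC. Mitochondrial UMIs made up 3.38, 4.13 and 4.54% of the total. The libraries shared 13 to 25 cell barcodes pairwise. Angpt1 was counted at 37.8 and 39.3 UMIs per 1,000,000 in the controls and at 0.391 in Angpt1ΔNC, as the genotypes require. Xist, transcribed from the inactive X chromosome, was at 0.0390 and 0.0249 UMIs per 1,000,000 in the controls and at 652 in Angpt1ΔNC, so the sexes of the pools differed along with the genotype and these cannot be told apart over all cells. Results are therefore also given in male-typed cells (a Y-linked UMI and no Xist), of which there were 6325, 7326 and 1990. Xist had a UMI in only 0.0331 and 0.0197% of the control cells, so most control cells left out lacked a Y-linked UMI. The choice can thus favour deeper cells. How many male mice the Angpt1ΔNC pool held was not given. Marker genes of other tissues that dissection could carry over were counted too. The summed level of 4 lens genes was 0.00902, 0.0184 and 0.0102 UMIs per 10,000, near 0 and with Angpt1ΔNC between the controls. That of 3 photoreceptor genes was 2.37, 0.300 and 0.0227, with the controls far apart, and that of 3 hemoglobin genes was 13.7, 6.77 and 28.8.

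Chaperones hold newly made or unfolded proteins and help them to fold. HSP70 proteins (Hspa1a, Hspa1b, Hspa8) bind exposed stretches of a client with the help of J-domain proteins such as Dnajb1 and exchange factors such as Hsph1, HSP90 (Hsp90aa1) completes the folding of many signaling proteins, and the small heat shock proteins (Hspb1, Cryab) keep unfolded clients soluble without using ATP. Heat, oxidants or the handling of cells release heat shock factor 1, which binds repeats of GAA and TTC in promoters and induces Hspa1a, Hspa1b, Dnajb1 and Hsph1 within minutes, while Hspa8 is the HSP70 that unstressed cells make. Cryab is best known as a lens crystallin but is also made in muscle, glia and the trabecular meshwork.

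In GENCODE M21 (build GRCm38) Hspa1a lies on chromosome 17 (34969190 to 34972156, minus strand), 9951 bases from its copy Hspa1b (34956436 to 34959238, minus strand). Of the 50-base words of the Hspa1a transcript, 58.8% also occur in Hspa1b, but none of those in its last 400 bases do, and likewise none in the last 400 bases of Hspa1b occur in Hspa1a. Reads from the very end of a transcript can therefore be told apart, and reads from farther inside may be shared, which leaves the single values of the pair uncertain. Promoter windows of RefSeq (GRCm38.p6, 250 bases before to 50 after the start) were found for 5 of the 8 genes: Hspa1a, Hspa1b, Dnajb1, Hspb1 and Hsph1. Those of Hspa1a, Hspb1 and Hsph1 are shown because they hold the letters of a pair of heat shock factor units, GAANNTTC or TTCNNGAA (each reads the same on both strands), which are in capitals. The windows lie at chr17:34972107-34972406 (minus strand), chr5:135887669-135887968 (plus strand) and chr5:149636287-149636586 (minus strand).
Hspa1a: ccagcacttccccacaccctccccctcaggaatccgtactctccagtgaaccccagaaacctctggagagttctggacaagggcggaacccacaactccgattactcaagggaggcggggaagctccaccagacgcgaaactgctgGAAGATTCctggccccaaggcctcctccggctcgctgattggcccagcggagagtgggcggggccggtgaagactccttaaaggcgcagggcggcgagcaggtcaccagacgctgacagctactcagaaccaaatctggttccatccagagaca
Hspb1: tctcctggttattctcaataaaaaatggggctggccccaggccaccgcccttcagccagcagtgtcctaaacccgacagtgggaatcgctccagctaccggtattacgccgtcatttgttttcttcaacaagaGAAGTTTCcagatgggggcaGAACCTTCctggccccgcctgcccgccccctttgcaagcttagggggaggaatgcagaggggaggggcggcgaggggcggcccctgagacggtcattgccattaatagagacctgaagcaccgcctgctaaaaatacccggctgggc
Hsph1: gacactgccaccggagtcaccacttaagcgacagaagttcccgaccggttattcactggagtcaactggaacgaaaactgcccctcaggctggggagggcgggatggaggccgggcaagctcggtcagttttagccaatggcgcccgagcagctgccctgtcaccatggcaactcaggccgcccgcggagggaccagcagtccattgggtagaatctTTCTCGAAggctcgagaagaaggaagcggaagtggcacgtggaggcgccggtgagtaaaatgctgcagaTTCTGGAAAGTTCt
A pair of units occurs in 15.1% of the 32817 promoter windows of the table. Hspa1a holds 1 pair, 104 bases before the start, and Hspb1 holds 2, at 117 and 97 bases. Hsph1 holds 3, and those after its start overlap to form 3 alternating units (GAANNTTCNNGAA or TTCNNGAANNTTC), which 0.603% of the windows hold. The Hspa1b window differs from that of Hspa1a at 4 of 300 bases (C44T, T47C, T249G and C276T, counted from the 5′ end of the window, Hspa1a base given before the position) and holds the same pair at the same place. Neither of the Dnajb1 windows holds these letters.

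The cells carry 35 labels set by the authors, who made them in part from these very genes (6 of the 8 were among the 3467 genes of the deposited integrated table), so levels between labels are described without a test. Level means the average over cells of a gene's UMIs per 10,000 UMIs of the cell. Over all kept cells of control replicate 1, control replicate 2 and Angpt1ΔNC, Hspa8 stood at 20.3, 18.4 and 14.0 UMIs per 10,000, Cryab at 18.3, 19.2 and 19.7, and Hsp90aa1 at 12.04, 12.3 and 10.9. Hspb1 stood at 9.45, 9.81 and 8.27, Dnajb1 at 3.18, 2.73 and 1.73, Hspa1a at 2.62, 2.26 and 1.87, Hsph1 at 1.19, 1.45 and 1.43, and Hspa1b at 0.901, 0.870 and 0.666. Because droplet counts of transcript ends depend little on transcript length, these levels compare roughly between genes. Hspa1a and Hspa1b are an exception, because reads that they may share leave their single values uncertain. Hspa8 and Hsp90aa1 were found in over 95% of the cells of each library, whereas Hspa1b had a UMI in 29.0, 25.7 and 22.8%. After each cell was thinned to 1000 UMIs, that share was 6.62, 6.15 and 4.37%, so a missing UMI does not show a missing transcript. The 8 genes also differed in how unevenly they were spread over cells. The 1% of cells richest in Hspa1a held 37.2, 44.0 and 44.0% of its UMIs, against 6.44, 6.11 and 7.01% for Hspa8.

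**Figure D1:**
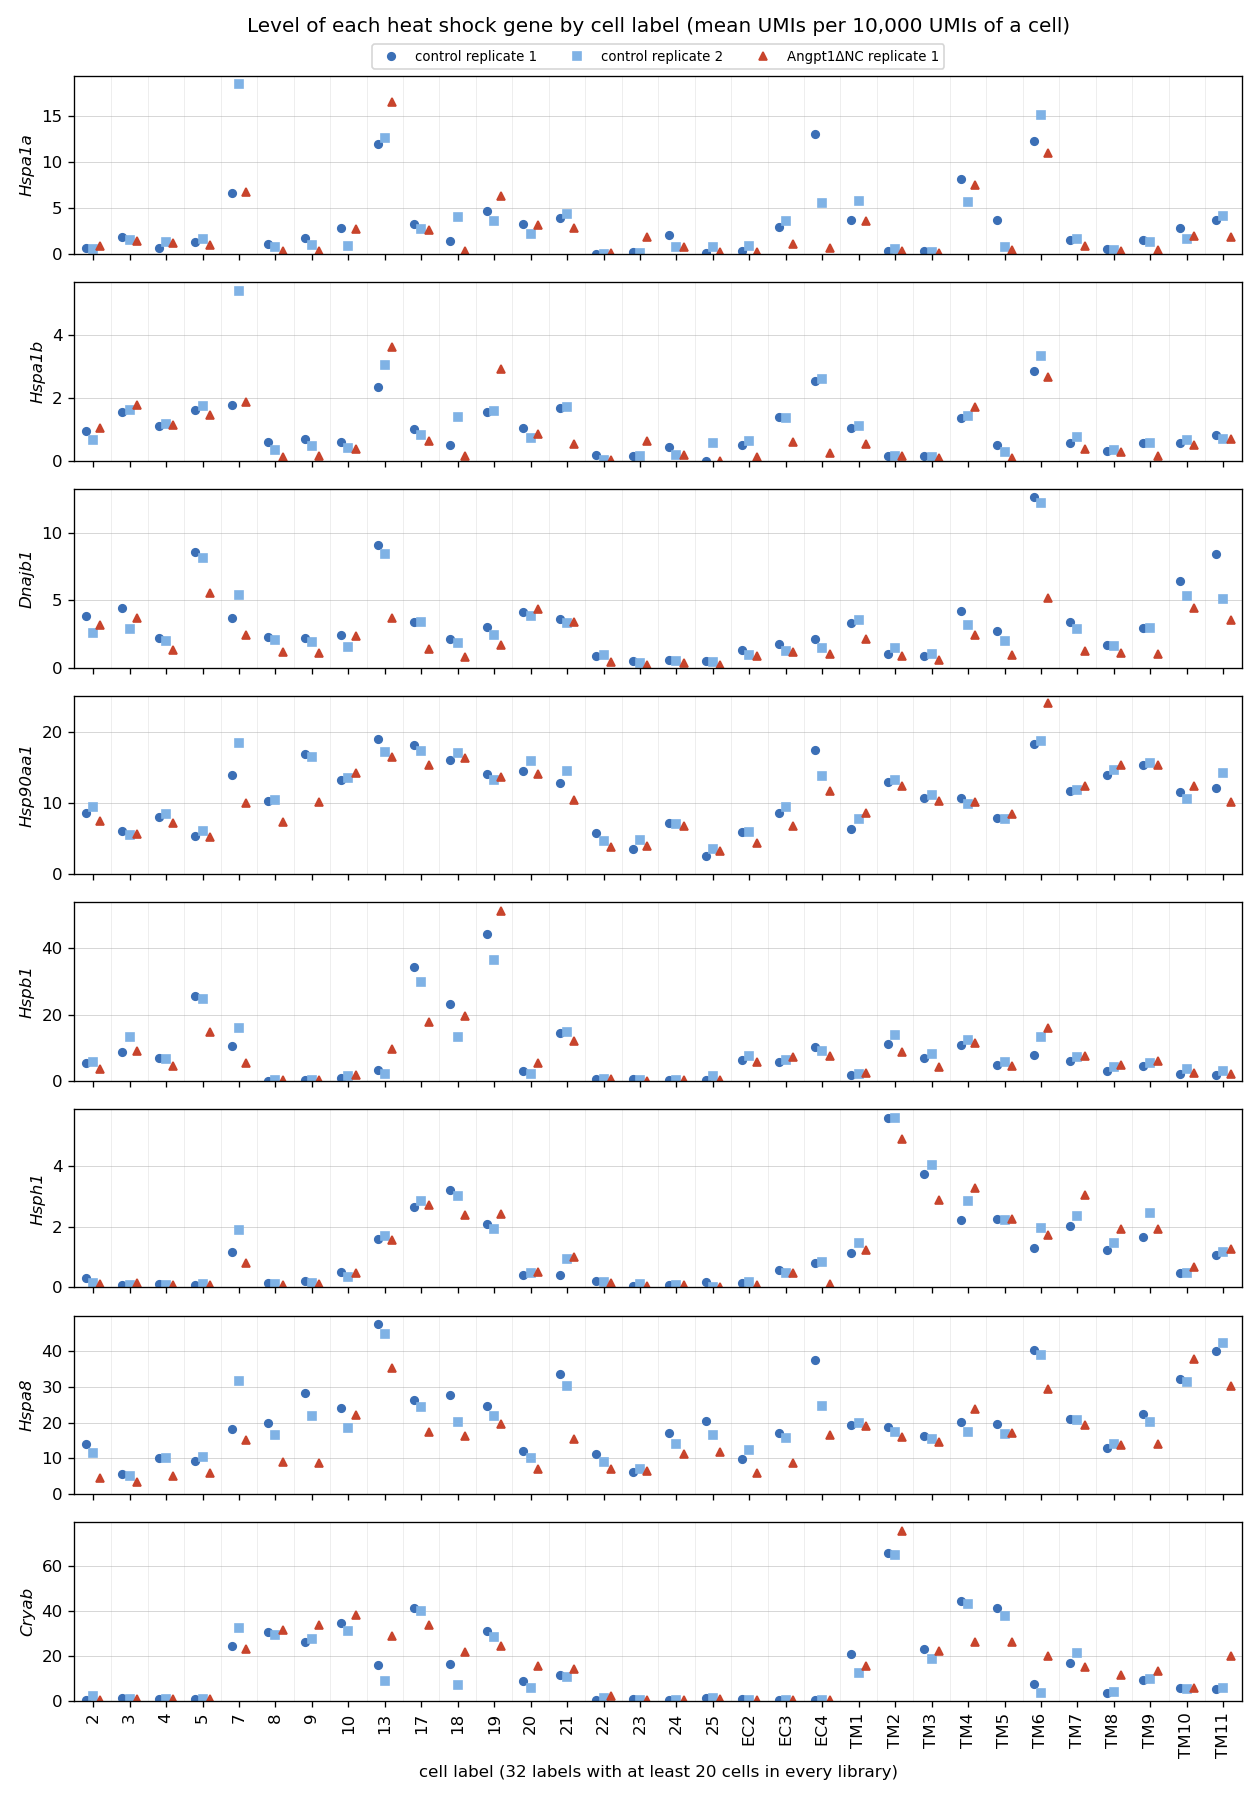
Level of each of the 8 genes (vertical axis, mean UMIs per 10,000 UMIs of a cell, linear and starting at 0) in the 32 cell labels with at least 20 cells in every library (horizontal axis). Each point is 1 library, circles and squares for control replicates 1 and 2 and triangles for Angpt1ΔNC. Hspa1a, Hspa1b and Dnajb1 peak in TM6, 13 or 7, Hspb1 in 19, Hsph1 and Cryab in TM2.

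The inducible HSP70 gene Hspa1a was highest in TM6, a stromal label whose leading genes included Fos, Klf2 and Jun, at 12.3 and 15.1 UMIs per 10,000 in the controls and 11.01 in Angpt1ΔNC. The labels next in order were 7 (ciliary epithelium by the authors' naming) at 6.69, 18.5 and 6.77, and 13 (corneal stroma, with Kera and Thbs4 among its leading genes) at 11.9, 12.6 and 16.5. TM6, 7 and 13 overlapped in their control values, and of the 31 neighbouring pairs of labels in the Hspa1a order 3 did not overlap. At the other end was label 22 (lymphocytes), at 0.0642, 0.0673 and 0.140, or 2, 5 and 6 UMIs in all its cells. The share of TM6 cells with an Hspa1a UMI was 77.7% (exact 95% interval 68.8 to 85.0), 82.4% (73.0 to 89.6) and 82.0% (68.6 to 91.4), and the median TM6 cell held 3839, 3988 and 4576.5 UMIs. In label 22 it was 2.25% (0.273 to 7.88), 3.01% (0.825 to 7.52) and 5.71% (2.13 to 12.02), with 2267, 2500 and 2531 UMIs in the median cell. Whether this share is background was not tested. These intervals cover counting error only.

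Much of Hspa1a came from few cells. Cells with Hspa1a at 10 or more UMIs per 10,000, a limit set for description that a cell of 1000 UMIs reaches with 1 UMI, numbered 489, 441 and 210 in the libraries, or 5.39, 4.34 and 3.101% of the cells. They were found in 29, 30 and 26 labels and had median depths of 5974, 5831 and 6206.5 UMIs. In TM6 they made up 39.3% (30.2 to 49.0), 40.7% (30.5 to 51.5) and 30.0% (17.9 to 44.6) of the cells, and in label 13 they made up 23.0% (16.8 to 30.2), 22.4% (16.3 to 29.6) and 29.7% (18.9 to 42.4). In the corneal endothelium label TM2 the shares were 0.309, 0.992 and 0.923%. Against the other cells of the same label mix, the Hspa1a-rich cells had 9.31, 12.2 and 20.4 times the Hspa1b level and 2.18, 2.48 and 2.89 times the Dnajb1 level. Hspa8 was 2.11, 2.03 and 1.90 times as high in them, Hspb1 1.72, 1.93 and 2.47 times, Hsp90aa1 1.51, 1.52 and 1.57 times and Hsph1 1.88, 1.59 and 1.38 times. The immediate early genes Fos and Jun, which cells switch on within minutes of a stimulus, were 2.95, 4.53 and 6.70 times and 3.13, 3.41 and 4.10 times as high. Cryab did not follow, at 0.895, 0.797 and 0.700 times. These cells were picked by Hspa1a, so the ratios describe them and were not tested.

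**Figure D2:**
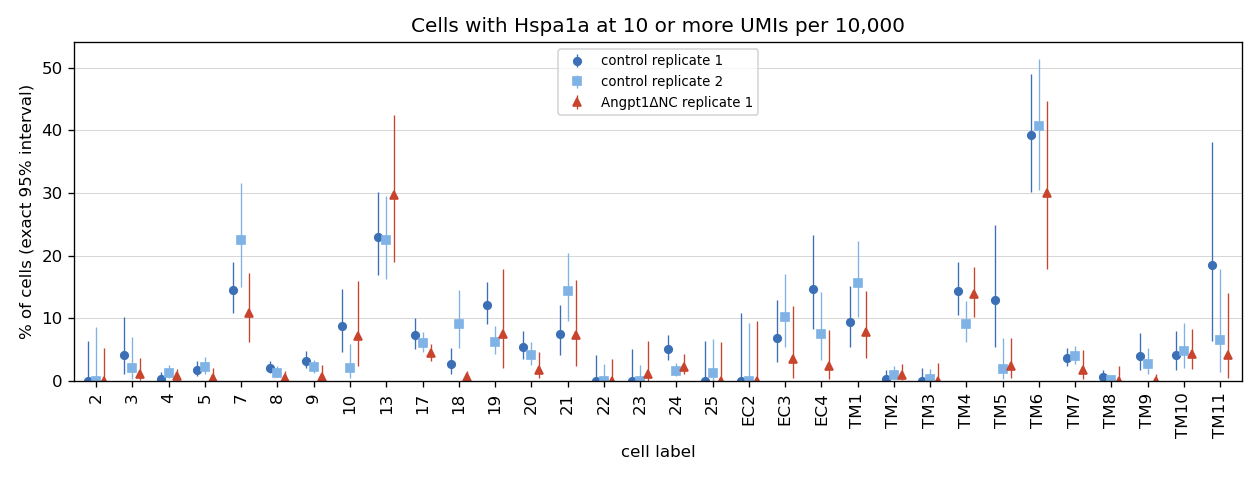
Percent of cells with Hspa1a at 10 or more UMIs per 10,000 (vertical axis, with exact 95% binomial intervals) by cell label (horizontal axis) in control replicate 1 (circles), control replicate 2 (squares) and Angpt1ΔNC (triangles). TM6 stands at 30.0 to 40.7% and label 13 at 22.4 to 29.7%, while most labels lie under 10%.

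Hspa1b followed the order of Hspa1a over labels (Pearson r = 0.87 over 34 labels on the log2 scale, a description of labels that share libraries). Its level was highest in label 7, at 1.78 and 5.41 UMIs per 10,000 in the controls, which lie far apart, and 1.87 in Angpt1ΔNC. The next was TM6 at 2.85, 3.35 and 2.68. The balance within the pair differed by tissue. In the surface epithelial labels 2 to 5 (limbal, conjunctival and corneal epithelium), Hspa1b made up 47.4 to 61.2% of the UMIs of the pair in control replicate 1, 49.1 to 54.3% in control replicate 2 and 48.2 to 61.1% in Angpt1ΔNC. In the other labels with at least 20 UMIs of the pair, its median share was 24.3% over 25 labels, 28.8% over 27 and 23.7% over 24. In TM6, where the pair was abundant, the share was 18.7% (15.8 to 21.8), 19.2% (16.4 to 22.1) and 19.7% (15.5 to 24.5). In corneal epithelium, label 5, it was 54.6% (53.1 to 56.1), 50.5% (49.0 to 52.0) and 61.1% (58.8 to 63.3). The highest value outside the epithelium was 62.5% in label 23 of control replicate 2, and the lowest was 11.5% in TM1 of Angpt1ΔNC. The grouping of epithelial labels was made after the values were seen, and the part played by shared reads was not tested.

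**Figure D3:**
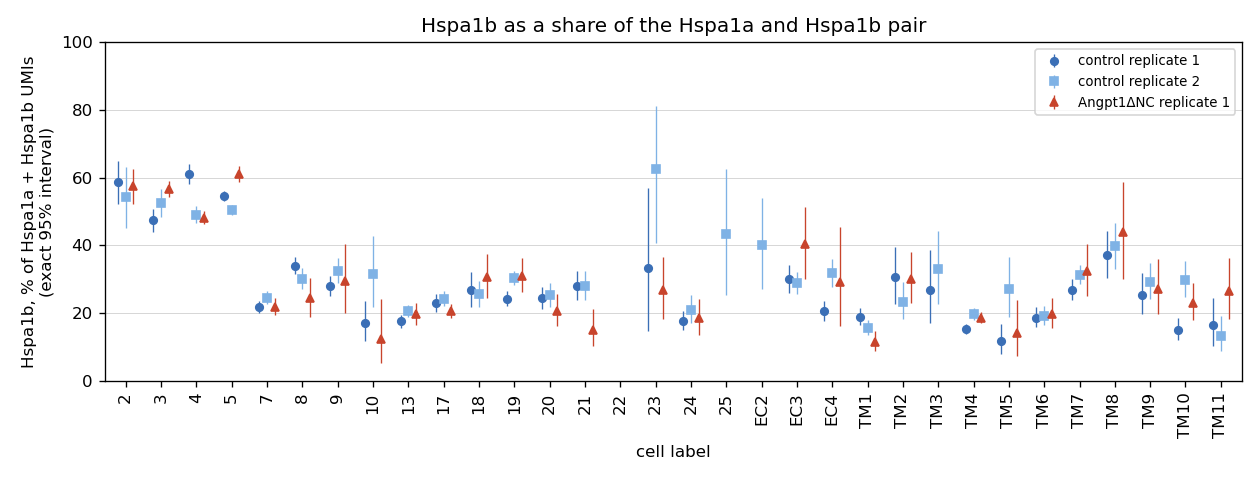
Hspa1b as a percent of all Hspa1a and Hspa1b UMIs (vertical axis, with exact 95% binomial intervals) by cell label (horizontal axis), in libraries with at least 20 UMIs of the pair (88 of 96 points). Epithelial labels 2 to 5 lie between 47.4 and 61.2%, and TM6 lies between 18.7 and 19.7%.

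Dnajb1, the J-domain partner that hands clients to HSP70, was highest in TM6 as well, at 12.6 and 12.2 UMIs per 10,000 in the controls and 5.15 in Angpt1ΔNC. It was followed by label 13 at 9.10, 8.40 and 3.70 and by corneal epithelium, label 5, at 8.54, 8.14 and 5.54. TM6 lay apart from label 13 in the controls, and label 13 overlapped with label 5. In TM6, 92.0% (85.3 to 96.3), 92.3% (84.8 to 96.9) and 78.0% (64.0 to 88.5) of cells had a UMI of Dnajb1. The lowest level was that of label 23 (monocytes by the authors' naming), at 0.457, 0.302 and 0.193. Control libraries stayed within 1.65 times of each other in all 32 labels for Dnajb1, with a median of 1.18 times. For Hspa1a the median was 1.44 times. Its largest ratio, 9.38, came from label 25, where the controls held 1 and 17 UMIs.

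Hsph1, an HSP110 protein that recharges HSP70, had another order. Its level was highest in corneal endothelium, TM2, at 5.58, 5.59 and 4.90 UMIs per 10,000, where 91.7, 93.1 and 90.8% of the cells had a UMI. TM3 came next at 3.74, 4.04 and 2.87, then label 18 (led by Ptn, Enpp2 and Igf1) at 3.21, 3.02 and 2.37. TM2, TM3 and label 18 each lay apart from the lower neighbour in the controls. Conjunctival epithelium, label 3, was the lowest at 0.0725, 0.0781 and 0.136, although its median cell held 16445 to 21944 UMIs. In TM2, where Hsph1 was highest, Hspa1a stood at 0.356, 0.545 and 0.379. In TM6, where Hspa1a was highest, Hsph1 stood at 1.29, 1.96 and 1.73, above the median of its control means over labels (0.748).

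Of the 8 genes, Hsp90aa1 and Hspa8 varied least over labels. The highest control mean of Hsp90aa1 was 6.14 times its lowest and that of Hspa8 8.53 times, against 208 times for Hspa1a, 263 for Cryab and 377 for Hspb1. Hsp90aa1 was highest in TM6 at 18.3, 18.8 and 24.0 UMIs per 10,000 and lowest in label 25 (monocytes) at 2.51, 3.53 and 3.24. Hspa8 was highest in label 13 at 47.8, 44.8 and 35.4, followed by TM11 at 40.2, 42.4 and 30.2 and TM6 at 40.5, 39.1 and 29.5. It was lowest in conjunctival epithelium, label 3, at 5.70, 5.15 and 3.53. In each of these labels the Angpt1ΔNC value of Hspa8 lay below both controls.

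The small heat shock proteins divided the labels most sharply. Hspb1, the actin-associated small chaperone HSP25, was highest in smooth muscle, label 19 (Cnn1, Actg2, Myh11), at 44.3, 36.5 and 51.3 UMIs per 10,000, and 99.0, 99.4 and 98.1% of these cells had a UMI. Label 17 (stromal cells by the authors' naming) followed at 34.3, 30.0 and 17.7, and corneal epithelium, label 5, at 25.5, 24.6 and 14.7. In label 8, whose leading genes were the pigment genes Tyrp1, Pmel and Mlana, Hspb1 was at 0.0912, 0.123 and 0.102, with a UMI in 7.75, 10.4 and 9.28% of the cells at median depths of 9262 to 11293 UMIs. Cryab differed from Hspb1 in some of these labels and not in others. In label 8 it stood at 30.5, 29.2 and 31.3 and had a UMI in every cell (839, 767 and 442 cells), and in corneal epithelium at 0.656, 0.740 and 1.01. In smooth muscle, label 19, where Hspb1 was highest, Cryab was also abundant at 31.1, 28.2 and 24.2. Cryab was highest in TM2 at 65.7, 64.6 and 75.6. Trabecular meshwork label TM4 (Myoc, Chad, Chil1) followed at 44.2, 42.9 and 26.2, label 17 at 41.2, 39.8 and 33.7, and TM5 at 41.1, 37.5 and 25.99. The lowest was the endothelial label EC3 at 0.255, 0.240 and 0.162, with a UMI in 16.9, 21.2 and 12.1% of the cells. The lens genes named above were near 0 in all libraries.

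Over the 34 labels with at least 20 cells in both controls, the levels of the genes formed no single pattern. On the log2 scale the correlation of Hspa1a was 0.69 with Dnajb1, 0.65 with Hspa8, 0.57 with Hsp90aa1 and 0.27 with Cryab, and that of Hsph1 with Cryab was 0.64. Among 2986 other genes, those most like Hspa1a included Fos (r = 0.72) and Egr1 (0.69), and those most like Hspa1b included Jun (0.74) and Id1 (0.66). Dnajb1 was most like Klf4 (0.80), Larp1b (0.73) and Ryk (0.72), and Hspb1 was most like Id1 (0.82), Fosl1 (0.81) and Pcdh7 (0.80). Hsph1 was most like Penk (0.91), Wisp1 (0.90) and Dpysl3 (0.90), and Cryab was most like Arl3 (0.91), Fxyd1 (0.90) and Gpx8 (0.89). Hsp90aa1 was closest to Chka (0.85), Pgrmc1 (0.84) and the HSP40 gene Dnaja1 (0.83), and Hspa8 to Chka (0.79), Selenom (0.75) and Tob1 (0.73). The labels share their libraries and their dissociation, so no p is given.

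The comparison of genotypes asks how the chaperone genes stood in eyes without neural crest Angpt1. With 1 Angpt1ΔNC library, each label gives 3 values, which were read by whether Angpt1ΔNC lay outside both controls. Dnajb1 lay below both in 27 of 32 labels and above both in 1 (label 20). Hspa8 lay below in 26 and above in TM4 and TM10. Over all gene and label pairs, 43.2% lay below both controls and 33.6% above. Hspa1b lay below in 19 and above in 7, Hspa1a in 18 and 5, Hsp90aa1 in 18 and 7, Hsph1 in 15 and 10 and Hspb1 in 13 and 10. Cryab was below in 12 and above in 15. The median ratio of the Angpt1ΔNC level to the control mean was 0.622 for Dnajb1 and 0.685 for Hspa8, against 1.05 for Cryab. In male-typed cells, with 24 labels counted, Hspa8 lay below both controls in 14 and above in 8, and Hsp90aa1 in 8 and 13. No share over all gene and label pairs was taken in male-typed cells, so these counts have no background beside them. The largest departures came from single labels. In endothelial label EC4 (arterial by the authors' naming) Hspa1a stood at 13.03 and 5.57 UMIs per 10,000 in the controls and 0.636 in Angpt1ΔNC, a ratio to the control mean of 0.068, and the 5 richest cells held 69.5, 79.2 and 72.4% of these UMIs. In the monocyte label 23 it stood at 1.82 in Angpt1ΔNC against 0.253 and 0.0903. Only 4 of the 86 Angpt1ΔNC cells there had an Hspa1a UMI (4.65%, against 7 of 70 or 10.0% and 7 of 142 or 4.93% in the controls), so the higher level came from few cells and the share of cells with a UMI was not higher. Cryab stood higher in TM6, at 19.98 against 7.57 and 3.26 (the 5 richest cells held 64.1, 50.9 and 57.4% of its UMIs), and lower in TM4 and TM5, as given above.

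**Figure D4:**
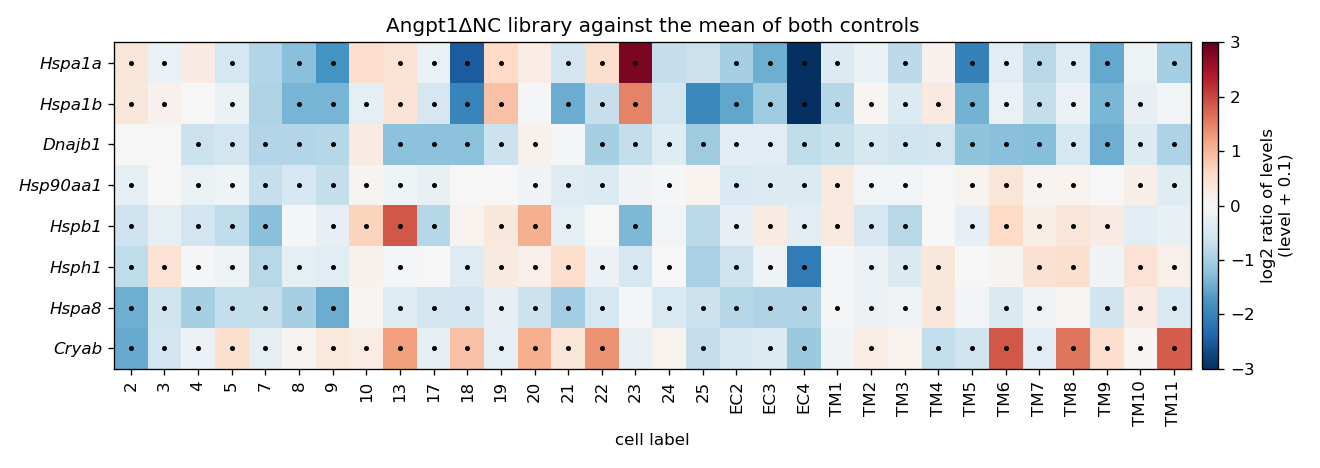
Log2 ratio of the Angpt1ΔNC level to the mean of both controls (colour, red higher and blue lower, with 0.1 UMIs per 10,000 added to each level) for the 8 genes (rows) in 32 cell labels (columns). A dot marks a value outside both controls. Dnajb1 has 27 labels below both controls and Hspa8 26, and EC4 is the darkest label of Hspa1a.

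For a test, UMIs were summed per library in 3 classes and compared by edgeR, 2 control libraries against 1. The lone Angpt1ΔNC library is assumed to vary like the controls. The p-values rest on the spread between the 2 control pools, with 1 residual degree of freedom, and on an estimate that edgeR shares over genes. No spread between Angpt1ΔNC pools could be measured, so a small p-value does not show that another such pool would give the same difference. In the stromal class (TM1 to TM11), Dnajb1 stood at 8.31 and 8.09 log2 CPM (counts per 1,000,000) in the controls and at 7.45 in Angpt1ΔNC. It was lower by a log2 fold change of -0.75 (SE 0.16, edgeR adjusted p = 0.0262). Of the 8 genes it alone was called lower (1 of 8), where 5.52% of all genes were, and none was called higher, where 3.46% were (none of the 8 had an unadjusted p under 0.05 on that side, and DESeq2 called none higher). The other stromal fold changes lay between -0.23 (Hspa1b) and 0.17 (Cryab). Without TM6 the adjusted p of Dnajb1 was 0.0518 in edgeR (log2 fold change -0.69). In male-typed cells alone it was 0.221 (-0.33), and there Hspa1a was called higher by edgeR instead (0.56, adjusted p = 0.0270, against -0.15 with adjusted p = 0.612 in all cells).

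In the epithelial class (labels 4 and 5), 2 of the 8 genes were called lower, where 2.91% of all genes were, and none higher, where 2.81% were. No gene of the 8 had an unadjusted p under 0.05 on the higher side, and DESeq2 called none there. Hspb1 stood at 10.96 and 10.87 log2 CPM in the controls and at 9.89 in Angpt1ΔNC, a log2 fold change of -1.02 (SE 0.20, edgeR adjusted p = 0.0262). Dnajb1 stood at 9.36, 9.37 and 8.44, a log2 fold change of -0.93 (SE 0.17, edgeR adjusted p = 0.0219). Hspa8 stood at 9.75, 9.97 and 9.08 and did not pass (-0.79, SE 0.19, edgeR adjusted p = 0.0509), but DESeq2 called it lower (adjusted p = 0.00780). Corneal label 5 made up 575 of 989, 505 of 1012 and 270 of 911 cells of the class, and it is the label with more Hspb1 and Dnajb1. Within label 5 Hspb1 was at 25.5, 24.6 and 14.7 UMIs per 10,000, and within limbal label 4 at 6.80, 6.45 and 4.40. Dnajb1 was at 2.21, 1.95 and 1.31 in label 4. With equal cell numbers per label the log2 fold changes were -0.65 for Hspb1 (edgeR adjusted p = 0.0894) and -0.46 for Dnajb1 (0.134), which lost both calls, and Hspa8 was called lower (-0.79, 0.0471). In male-typed cells Hspb1 also missed the threshold (-0.77, edgeR adjusted p = 0.0711).

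In the endothelial class (SC, LEC and EC2 to EC4), the inducible pair was lower. Hspa1a had 987 and 1047 UMIs in the controls and 109 in Angpt1ΔNC, or 8.54, 8.38 and 6.03 log2 CPM, a log2 fold change of -2.44 (SE 0.19, edgeR adjusted p = 8.89e-12). Hspa1b had 334, 483 and 75 UMIs, a log2 fold change of -1.65 (SE 0.21, edgeR adjusted p = 3.05e-07). These were 2 of the 8 genes, where 4.82% of all genes were called lower, and none was called higher, where 8.12% were (none had an unadjusted p under 0.05 on that side, and DESeq2 called none higher). Few cells carried these counts: the 5 cells richest in Hspa1a held 49.7, 46.3 and 46.8% of its UMIs in the class. Without those 5 cells of each library Hspa1a was at 197, 188 and 32.5 UMIs per 1,000,000. Without EC4 the log2 fold change was -1.66 for Hspa1a (edgeR adjusted p = 0.00113) and -0.88 for Hspa1b (0.0541). In male-typed cells (220, 258 and 66) both were called lower by edgeR, at -1.96 and -0.89 (adjusted p = 2.11e-15 and 0.00478). The other 6 genes lay between -0.71 (Cryab, on 95, 84 and 32 UMIs) and 0.12 (Hspb1). Whether the fold changes differ between the classes was not tested. In EC4, 14.6, 7.48 and 2.30% of the cells had Hspa1a at 10 or more UMIs per 10,000, and 34.4, 24.3 and 14.9% had an Hspa1a UMI. In EC3 the first share was 6.78, 10.2 and 3.45%, and the second was 31.4, 39.0 and 34.5%. How far fewer cells with an induced gene, or a lower level in each cell, made up the difference was not tested.

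**Figure D5:**
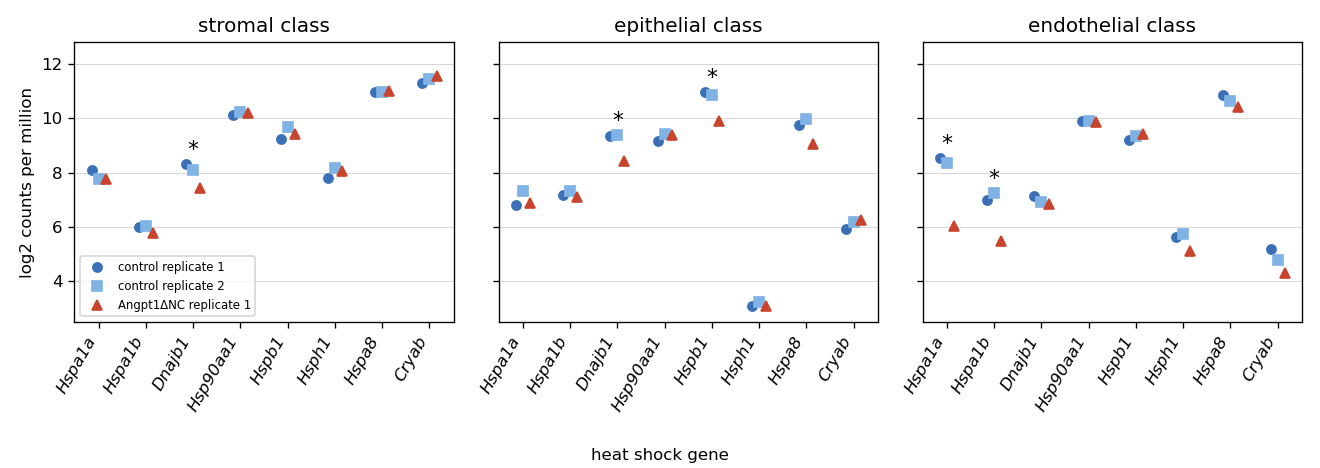
Log2 CPM (counts per 1,000,000, vertical axis) of the 8 genes (horizontal axis) in UMIs summed per library for the stromal, epithelial and endothelial classes. Circles and squares are control replicates 1 and 2, triangles are Angpt1ΔNC, and an asterisk marks an edgeR adjusted p under 0.05. In the endothelial class Hspa1a lies at 8.54 and 8.38 in the controls and 6.03 in Angpt1ΔNC.

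Other genes of protein folding were read from lists beside the 8, against the shares of all genes called lower (5.52, 2.91 and 4.82% in the stromal, epithelial and endothelial classes) and higher (3.46, 2.81 and 8.12%). Of 24 other cytosolic chaperones and co-chaperones, 0 were called by edgeR in the stromal class (3 at an unadjusted p under 0.05) and 0 in the epithelial class (2 at an unadjusted p under 0.05), and DESeq2 also called 0. In the endothelial class edgeR called 1 higher and 2 lower and DESeq2 called 0. Of 17 chaperones and response genes of the endoplasmic reticulum, 2 were called lower in the stromal class, 1 in the epithelial and 1 in the endothelial class (DESeq2 2, 1 and 0), and 1 of 17 is near the share of all genes. Pdia3, a disulfide isomerase, was among them in the stromal class at -0.84 (SE 0.15, edgeR adjusted p = 0.0126). Of 7 mitochondrial chaperones edgeR called 2 lower in the endothelial class and DESeq2 called 0. In the stromal and epithelial classes both tools called 0 of these, with 1 and 0 at an unadjusted p under 0.05 in edgeR. The small heat shock protein Hspb8 was called lower in the endothelial class, at -1.29 (SE 0.19, edgeR adjusted p = 6.84e-06), as 1 of 2 small heat shock genes outside the 8 that passed the filter there (DESeq2 also called 1 of this list lower). In the stromal and epithelial classes 0 of 7 and 0 of 4 of these were called by either tool, with 3 and 2 at an unadjusted p under 0.05 in edgeR. Of 3 heat shock factors measured in the stromal class edgeR called 1 lower and DESeq2 called 0, and both called 0 in the epithelial and endothelial classes (0 and 1 at an unadjusted p under 0.05 in edgeR).

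Immediate early genes, whose transcription responds to handling within minutes, were read beside the heat shock genes in the same classes. In the endothelial class the medians of the 2 lists lay on opposite sides of 0. Of 14 such genes, 8 were called lower in the epithelial class by edgeR, where 2.91% of all genes were (DESeq2 also called 8), with Fos at -1.57 (SE 0.20, edgeR adjusted p = 0.00589). In the stromal class 3 were called lower, where 5.52% of all genes were (DESeq2 also called 3), with Socs3 at -1.41 (SE 0.18, edgeR adjusted p = 0.00230). In the endothelial class edgeR called 6 of the 14 higher, where 8.12% of all genes were, with Egr1 at 0.79 (SE 0.17, edgeR adjusted p = 0.00110), while DESeq2 called 1. These are the same summed libraries in which Hspa1a and Hspa1b were lower. The median log2 fold change of the immediate early list was -0.34, -0.70 and 0.40 in the stromal, epithelial and endothelial classes. That of the 8 heat shock genes was -0.0061, -0.19 and -0.46, and that of all genes was -0.0080, -0.015 and -0.021. The part of dissociation in these differences was not tested.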

How the data were processed

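The 3 libraries were grouped by the genotype in their labels. The authors deposited raw UMI counts per gene and called cell, made with Cell Ranger (version 2.1.1 in the submitters' processing notes, 3.0.2 in the matrix headers) on mm10, and the label of each kept cell. Cells with fewer than 200 genes, fewer than 1000 UMIs or more than 10% mitochondrial counts had been removed by the authors, and scDblFinder doublets too. Their integrated values (Seurat 3.1.3) and other columns were not used for any level. The 8 genes, the gene lists and the classes were chosen with earlier results of these data known. Genes outside the 8 are named by rule, apart from leading genes of labels, taken from the 10 highest by fold, and Fos and Jun in Hspa1a-rich cells, all chosen after their values were seen. The rule took Angpt1 and Xist, at most the 3 list genes with the smallest p in a class, and for each of the 8 the 3 genes most like it by Pearson's r of log2(control mean + 0.1), among genes with a mean of at least 0.5, of which 1 gene is not reported here.

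Levels and shares used Python 3.11.15, numpy 2.4.6, pandas 2.3.3 and scipy 1.17.1 (exact Clopper-Pearson 95% intervals). Labels with under 20 cells in any library (1, SC and LEC) were left out of comparisons by label, which leaves 32 of 35. Background shares used gene and label pairs with a mean level of at least 0.1. Summed counts were tested with edgeR 4.0.16 in R 4.3.3 (TMM factors and filterByExpr). The p-values of its quasi-likelihood F-test were adjusted by the method of Benjamini and Hochberg and called under 0.05, and the SE was taken from the F statistic, with 1 residual degree of freedom. DESeq2 1.42.0 and the settings given in the closing section were alternatives. On simulated counts with 200 changed genes, edgeR called 60% of 2-fold and 81% of 4-fold changes in the stromal class (13942 genes), 31 and 77% in the epithelial class (12341 genes) and 46 and 80% among endothelial cells (9660 genes). Of its calls 7.84, 7.69 and 3.82% were false. The counts were drawn gene by gene with the dispersions that edgeR had estimated, and the Angpt1ΔNC library was drawn like the controls. These shares therefore cannot show how many calls are false in the real libraries, where that assumption is not tested. Promoters were searched on both strands, and figures were drawn with matplotlib 3.10.9.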

Additional observations from a re-analysis of the deposited data

Results flagged for a closer look

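Hspb1, Hspa8 and Cryab lay on opposite sides of both controls in different classes, and the difference between classes was not tested for any of them. In Angpt1ΔNC, Hspb1 was above both controls in the endothelial class (log2 fold change 0.12) and below both in the epithelial class (-1.02). Hspa8 was above both in the stromal class (0.0245) and below both in the epithelial (-0.79) and endothelial (-0.34) classes. The stromal excess was slight, at 11.002 log2 CPM in Angpt1ΔNC against 10.992 and 10.962 (edgeR adjusted p = 0.940). Within the stromal labels, Hspa8 was above both controls in TM4 and TM10 only. It was below both in TM1, TM2, TM3, TM6, TM7, TM9 and TM11. The part of label composition in the stromal sum was not tested. Cryab was above both in the stromal (0.17) and epithelial (0.19) classes and below both in the endothelial class (-0.71). Of these fold changes, that of Hspb1 in the epithelial class passed the edgeR threshold.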

How the results depend on the processing

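The labels pair no control library with the Angpt1ΔNC library, so no paired analysis was possible. The precision is limited by 1 Angpt1ΔNC library, by pools that differ in sex, and in the endothelial class by 295, 327 and 209 cells. Of 34 recounts of called genes, 27 stayed within 1.5 times of the reported count, 5 fell and 2 rose. The 34 include the counts of genes called higher, which were 0 in each class, and 0 against 0 stays by rule. The gain of Hspa8 in the epithelial class, named below, also stays within 1.5 times. The 27 therefore say little about how stable the called genes were. In male-typed cells 1 gene was called higher and 0 lower in the stromal class and 1 was called lower in the epithelial class. Over all genes tested in male-typed cells, 735 of 13427 were called higher and 1030 lower in the stromal class. In the epithelial class 221 of 12074 were called lower. Without TM6 0 of the 8 were called lower in the stromal class. With equal numbers of cells per label 1 was called lower in the epithelial and 4 in the endothelial class (Hsph1 and Hspa8 joined). Without EC4 1 was called lower in the endothelial class. Over all genes these fits called 526 of 13893, 231 of 11716, 423 of 8904 and 229 of 9163 lower, in that order. DESeq2, RLE size factors and no filter on low counts kept each called gene in its class and added Hspa8, lower, in the epithelial class. In male-typed cells (24 labels) the labels above both controls were 8 for Hspa1a, 4 for Dnajb1, 13 for Hsp90aa1 and 8 for Hspa8, and those below were 8 for Hsp90aa1 and 14 for Hspa8. No share over all gene and label pairs was taken for these 24 labels. In cells thinned to 1000 UMIs, 0 labels were above for Dnajb1. The other 57 of 64 recounts of labels stayed within 1.5 times.

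Fold changes turned sign in 12 of 136 refits with a test and in 6 of 48 without 1 control, where 1 library against 1 leaves no test. In male-typed cells the stromal log2 fold changes were 0.56 for Hspa1a, 0.40 for Hspa1b, 0.0207 for Hspb1 and -0.0756 for Hsph1, the epithelial one of Hspa1a was 0.0489, and the endothelial ones were 0.35 for Hsp90aa1 and 0.0026 for Hspa8. With equal numbers of cells they were -0.0043 for stromal Hspa8, 0.00056 for epithelial Hspa1a, -0.0087 for epithelial Hsp90aa1 and -0.0376 for endothelial Hspb1, and without EC4 Hsph1 was at 0.0851 in the endothelial class. Of these, stromal Hspa1a passed the threshold, and the cause was not tested. Without control replicate 1 the sign of stromal Hspa1a, Hsp90aa1 and Hsph1 and of epithelial Hsp90aa1 turned (0.0036, -0.011, -0.085 and -0.013), and without control replicate 2 that of stromal Hspb1 (0.20) and epithelial Hspa1a (0.063), none of them called in all cells. The called genes kept their direction without either control, with Dnajb1 at -0.85 to -0.63 in the stromal class. Over all genes, 1251 were called in the stromal class, against 637 by DESeq2 and 2441 with no filter. In the epithelial class 706 were called, against 439, 1814 and 465 in male-typed cells, and in the endothelial class 1250, against 238 by DESeq2 and 671 without EC4. All shares of cells with a UMI fell on thinning.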
